A study of Mus musculus with 4 samples.

Results

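The HoxB cluster carried 13 CTCF sites in mouse calf muscle, out of 42163 in the whole conservative peak list. A site here is the summit of 1 listed peak, the single base that the depositors gave as its highest point. The 13 were all the summits that lay on mm10 chr11:96144316-96418256, a window of 273941 bp that reaches 50 kb past the start of Hoxb13 on one side and 50 kb past the end of Hoxb1 on the other. No measured strength entered the choice beyond the authors' own peak threshold. The sites are numbered 1 to 13 in the direction in which all 10 Hoxb genes are read, with Hoxb13 first and Hoxb1 last.

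CTCF was mapped by chromatin immunoprecipitation and sequencing in gastrocnemius of adult female B6CASTF1/J mice at 2 months of age. The 4 libraries come from pool E (2 libraries) and pool F (2 libraries). The labels number pool E as biological replicate 1 and pool F as biological replicate 2 of the same tissue. Each pool combined 2 gastrocnemius samples and was sequenced as 2 technical replicates; no treatment or mutation separates the pools, and the number of animals behind each pool was not given in the sources used here. B6CASTF1/J is a first-generation hybrid, and the lists, placed on mm10, do not separate its alleles. Every list merges the technical replicates, so the only replicate values are those of the pools, which are given for each site, and read depth is unknown because the lists hold no read counts. Peak lists carry no expression, so the tissue label could not be checked against muscle genes, and whether any Hoxb gene was transcribed in these samples was not measured.

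Hox genes encode homeodomain transcription factors that give cells their position along the body axis of the embryo, and within a cluster the genes are arranged in the order in which they act along that axis. CTCF is a zinc-finger protein whose binding motif has a direction, and pairs of bound sites can anchor chromatin loops. In Hox clusters of mouse embryos and stem cells, CTCF sites between the genes are known as boundaries between active chromatin and chromatin repressed by Polycomb proteins.

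The DNA under 9 of the sites is shown because it carries the main features of the cluster: close motif matches at sites of very different strength (1, 3 and 12), strong sites that depart from the consensus at the same base (4, 7, 9, 10 and 13), and the 1 site without a match (2). Sites 2 and 12, both weak, depart at that base too. Each line gives 30 bases from the mm10 assembly (RefSeq GRCm38.p6) on the strand that reads as the motif, with the 14 bases aligned to the CTCF consensus in capitals and 8 bases on each side.
Site 1, chr11:96145773-96145802, plus strand: aggaatggCCACCAGAGGGGGGtagacggc
Site 2, chr11:96198755-96198784, minus strand: aatgtctaCCGGAAGGGGGAGCgcttgtct
Site 3, chr11:96223997-96224026, minus strand: cacagaggCCAGAAGAGGGCGCcattttta
Site 4, chr11:96235096-96235125, minus strand: tctcgcggCCGGCAGGGGTCACtgtgtggc
Site 7, chr11:96278940-96278969, plus strand: cacagtggCCGCTAGATGGCATccttgctc
Site 9, chr11:96294688-96294717, minus strand: ccgaacggACGGTAGATGGCAGcaaactgc
Site 10, chr11:96303237-96303266, plus strand: gtcaatcgCCGGGAGGTGGCGCgctctgct
Site 12, chr11:96346185-96346214, minus strand: gggaggggCCGGCAGGGGGCGGcagcggat
Site 13, chr11:96407888-96407917, minus strand: ggcggcggCCGCTAGGGTGCAGctgtgggc

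The HoxB sites were more closely spaced than peaks in general, and their median strength was higher. The window held 4.75 summits per 100 kb, against 1.65 for the whole list and 2.65 on chromosome 11. Strength is the authors' deposited score for each peak, on a scale that was not stated, and it serves here to order peaks within 1 list. Its median was 400.3 over the 13 sites and 245.6 over the list (258.6 on chromosome 11), and the median HoxB site was stronger than 70.5% of all listed peaks. The sites fell into 9 with strengths of 373.2 to 559.8, all above the list median, and 4 with strengths of 63.3 to 172.1, all under it. No site had a strength between 172.1 and 373.2; this division was made after the values were seen.

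**Figure D1:**
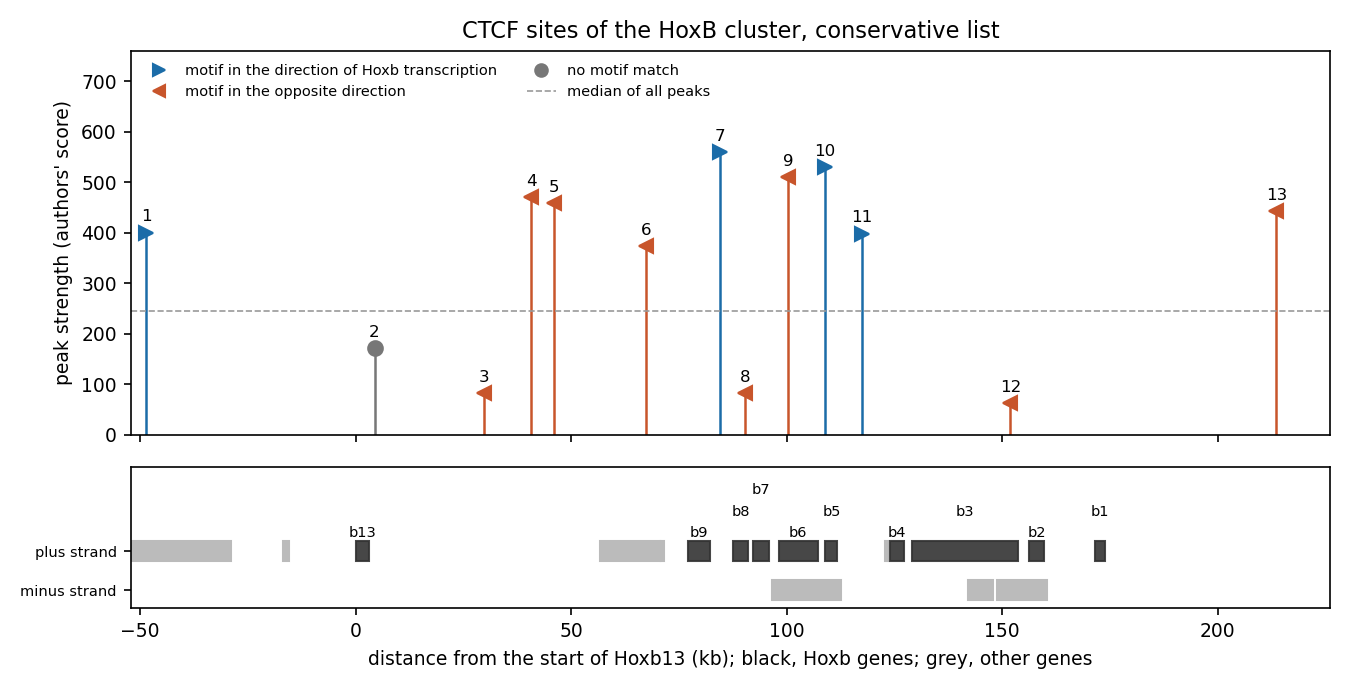
Peak strength (the authors' score, vertical axis) of the 13 HoxB sites against distance from the start of Hoxb13 in kb, with annotated genes by strand underneath (b13 to b1 are Hoxb13 to Hoxb1). Triangles point in the direction of the motif; 4 of the 5 sites from the start of Hoxb9 to the start of Hoxb4 are strong, between 398.1 and 559.8, and the weak sites are 2, 3, 8 and 12.

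Sites gathered between the starts of Hoxb9 and Hoxb4 and thinned toward Hoxb1. The 46.8 kb from the start of Hoxb9 to the start of Hoxb4 held 5 sites, or 10.7 per 100 kb, with a median strength of 510.7. The 77.1 kb from Hoxb13 to the start of Hoxb9 held 5 sites, or 6.48 per 100 kb, with a median of 373.2. The last 50 kb of the cluster, which hold Hoxb4, Hoxb3, Hoxb2 and Hoxb1, contained a single site, the weakest of the 13 at 63.3. The 50 kb flanks held 1 site each. Neighbouring sites lay a median of 14136 bp apart, from 5319 bp between sites 4 and 5 to 61721 bp between sites 12 and 13. The stretches were drawn after the positions were seen.

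On the Hoxb13 side, the outermost site lay within another gene. Site 1 had a strength of 400.3 and lay in an intron of Ttll6, which encodes a tubulin polyglutamylase, 48532 bp before the start of Hoxb13. Site 2 (172.1) lay 1309 bp past the end of Hoxb13, the gene at the posterior end of the cluster, known for its role in the prostate. It was the narrowest HoxB peak, at 180 bp against a median of 294 bp. The long interval between Hoxb13 and Hoxb9, in which site 2 lies, contained no other protein-coding gene and also held sites 3 to 6. Site 3 was weak (82), with 137 of its 340 bases masked as repeats in the reference. Sites 4 (470.2) and 5 (458.3) were a close, strong pair, 36343 and 31024 bp before Hoxb9. Site 6 (373.2) lay in an exon of Gm53, a long intergenic noncoding RNA gene, at −3401 bp from Mir196a-1, a microRNA gene whose product targets Hox transcripts, and 9694 bp before Hoxb9.

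Between Hoxb9 and Hoxb4, most neighbouring genes were separated by a site or had one within them. Site 7, the strongest of the cluster at 559.8 and rank 2306 of the list, lay between Hoxb9, which takes part in patterning the thoracic skeleton, and Hoxb8, a gene used to hold myeloid progenitors in an immature state in culture. It was 2358 bp past the end of Hoxb9 and 2952 bp before the start of Hoxb8. Site 8 was weak (81.8) and lay in the 3′ untranslated part of Hoxb8, 1970 bp before Hoxb7. Hoxb7, expressed in the ducts of the developing kidney, and Hoxb6 had no site between them. Site 9 (510.7) lay in an intron of Hoxb6, 2228 bp from its start, and also in an intron of the antisense gene Hoxb5os. Site 10 (529.4, rank 4113) was the only one in a promoter, 86 bp before the start of Hoxb5, a gene expressed in blood stem cells. Site 11 (398.1) lay between Hoxb5 and Hoxb4, 5622 bp past the end of Hoxb5 and 6524 bp before the start of Hoxb4, a gene known for expanding blood stem cells when overexpressed.

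At the anterior end, where the genes pattern the hindbrain, site 12 (63.3, rank 40208) was the only one inside the cluster. It lay in a coding exon of Hoxb3, 22860 bp into the gene, and in an exon of the antisense gene Hoxb3os, 4339 bp before the start of Hoxb2. Hoxb1 had no site within 5000 bp, and its nearest was site 12, at −19566 bp from its start. Site 13 (443.5) lay in intergenic sequence 39651 bp past the end of Hoxb1 and 56686 bp before Skap1, which encodes an adaptor protein of T cells. It is the first site past the cluster on that side, 61721 bp from site 12.

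Gene by gene, 6 of the 10 listed Hoxb genes had a summit within 5000 bp of the start, where 37.4% of all annotated protein-coding genes did. These were Hoxb2, Hoxb5, Hoxb6, Hoxb7, Hoxb8 and Hoxb13. Site 8 was the nearest to both Hoxb7 and Hoxb8, so the genes are not independent. Hoxb5 alone had a summit within 1000 bp of its start, where 20.6% of protein-coding genes did. Hoxb9, Hoxb4, Hoxb3 and Hoxb1 had none within 5000 bp, at 7496, −6524, −11583 and −19566 bp, where a minus sign marks a site before the gene. Hoxb3 has an annotated transcript start 20443 bp into the gene, and site 12 lay 2417 bp past it. By place, 1 HoxB site was in a promoter, 3 were in exons, 2 in introns and 7 between genes, beside list shares of 14.1%, 6.78%, 44.3% and 34.9%.

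Peaks behind the conservative list carry a strength from each of 2 inputs, which at all 13 sites were the pool E and pool F values. That every site had a strength in both pools is therefore no finding. The value was higher in pool E at every site. Over all 42169 ranked peaks past the threshold, the median log2 ratio of pool E over pool F was 1.03 (SD over peaks 0.39). At the 9 strong sites the strength ran between 234.1 and 338.3 in pool E and between 133.0 and 225.8 in pool F. Site 7 had 338.3 in pool E and 225.8 in pool F, the highest HoxB values of both pools. Site 10 had 324.2 in pool E and 212.8 in pool F. Site 9 had 302.2 in pool E and 203.5 in pool F. These 3 sites were the strongest HoxB sites of both pools and came in the same order in both, as they did in the conservative list.

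**Figure D2:**
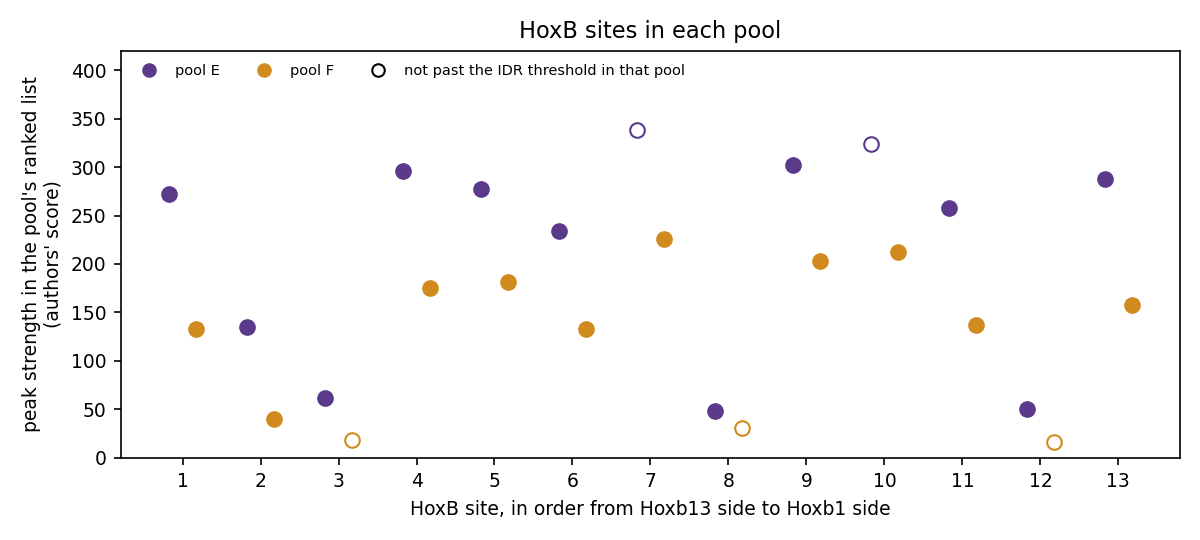
Peak strength (the authors' score) of each HoxB site in the ranked list of pool E (left point of each pair) and of pool F (right point). Open circles mark sites that did not pass the threshold on the irreproducible discovery rate in that pool: 7 and 10 in pool E, and 3, 8 and 12 in pool F.

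Sites 4, 5 and 13 followed. Site 4 had 296.1 in pool E and 175.4 in pool F. Site 5 had 277.8 in pool E and 181.9 in pool F. Site 13 had 287.5 in pool E and 158.0 in pool F. The pools ordered these 3 sites differently, with site 4 first in pool E and site 5 first in pool F. Site 1 had 272.5 in pool E and 133.3 in pool F. Site 11 had 257.6 in pool E and 137.4 in pool F. Site 6 had 234.1 in pool E and 133.0 in pool F. In both pools these last 3 were the lowest of the strong sites, and site 6 was lowest of all.

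The weak sites were weak in both pools. Site 2 had 135.3 in pool E and 40.3 in pool F. Site 3 had 61.5 in pool E and 18.3 in pool F. Site 8 had 47.9 in pool E and 31.2 in pool F, and site 12 had 50.8 in pool E and 16.2 in pool F. The weak and strong sites did not overlap in either pool: the weak ones reached 135.3 in pool E and 40.3 in pool F, and the strong ones began at 234.1 in pool E and 133.0 in pool F. The division was made on the conservative list, which both pools enter, so its return in each pool is not an independent check. The median log2 ratio of pool E over pool F was 0.82 over the 13 sites (SD over sites 0.45), against 1.03 over all 42169 ranked peaks past the threshold (SD over peaks 0.39). It was 0.76 over the 9 strong HoxB sites (range 0.57 to 1.03) and 1.70 over the 4 weak ones (range 0.62 to 1.75). Site 8, at 0.62, was a weak site with a ratio in the range of the strong ones. Over all peaks past the threshold it was also 0.76 at or above the median strength, and 1.29 under it. The ratio thus moved with strength in the whole list too, and as the scale of neither pool's score was stated, no difference in binding can be read from it.

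Whether a site entered the list of 1 pool depended on the irreproducible discovery rate (IDR), a measure of how alike a peak ranks in a pair of inputs; peaks at 0.05 or less were listed. Of the 13 sites, 10 had a partner in the pool E list at a reciprocal overlap of 50%, beside 87.8% of all conservative peaks. In the pool F list 10 had a partner, beside 66.2%, and in the combined list all 13 did, beside 97.4%; of the ranked peaks behind the combined list 43% passed the threshold. The sites without a partner differed in kind between the pools. Pool F lacked sites 3, 8 and 12, all weak, whose IDR there was 0.107, 0.166 and 0.599. Pool E lacked sites 7 and 10, the 2 strongest of the cluster, at an IDR of 0.0585 and 0.0844. Pool E did list site 8, as a peak only 116 bp wide that overlapped too little of the 340 bp conservative peak to count.

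The ranked list of a pool gives each peak a strength in a first and a second input; the notes name only that pool's alignment and the control as their source. At sites 7 and 10 the inputs of pool E differed in opposite directions. Site 7 had a strength of 180.1 in the first input and 155.7 in the second, and site 10 had 140.4 in the first and 179.5 in the second. Inputs also differed at site 9, with 169.0 in the first and 130.6 in the second, and it passed at an IDR of 0.00865. Why sites 7 and 10 missed the threshold in pool E was not tested. Misses at the top were common in that pool: 42% of all ranked pool E peaks passed the threshold, and 87% of the strongest 10% did, where 100% of the next 10% did. Among the 2050 ranked pool E peaks at least as strong as site 7, 51.6% did not pass, and among the 3782 at least as strong as site 10, 36.7% did not. In pool F, where 42.2% of ranked peaks passed, 97% of the strongest 10% did, and sites 7 and 10 had an IDR of 0.000492 and 0.000472. With both pools as inputs, where 41.1% of ranked peaks passed, these sites had an IDR of 0.000581 and 0.000447.

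**Figure D3:**
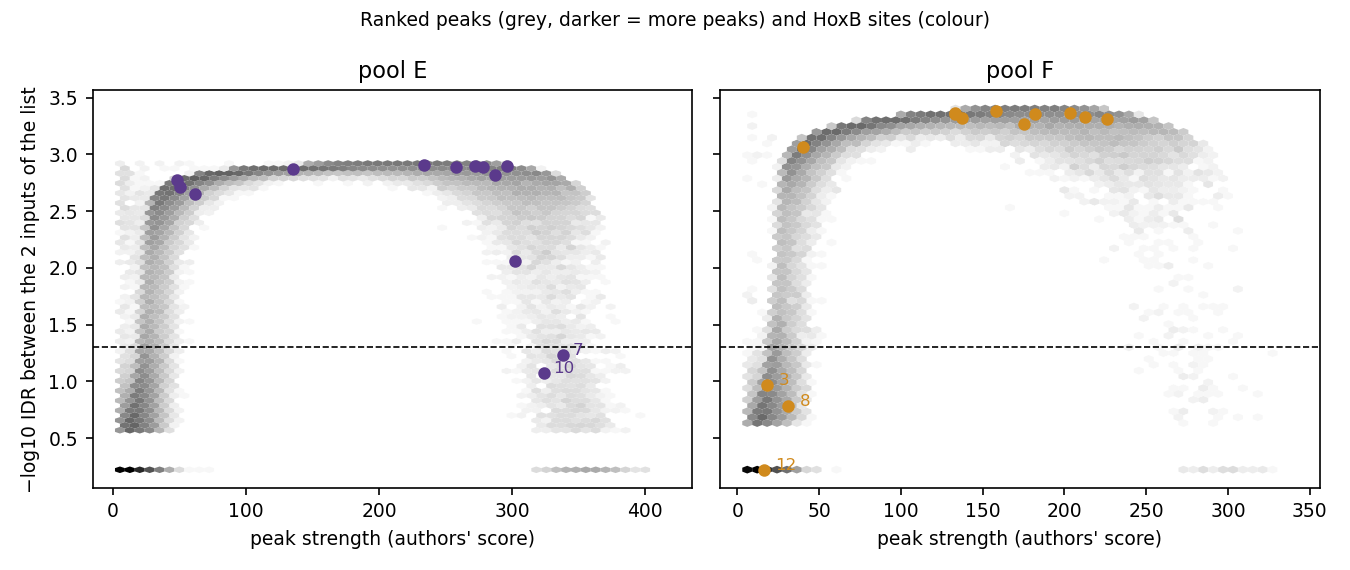
The −log10 IDR between the pair of inputs of each pool's ranked list against peak strength (the authors' score), for all ranked peaks (grey hexagons, darker for more peaks) and the HoxB sites (coloured points); the dashed line is the threshold of 0.05. In pool E (left) sites 7 and 10 lie under the line at strengths of 338.3 and 324.2, where many of the strongest peaks lie; in pool F (right) sites 3, 8 and 12 lie under it at strengths of 16.2 to 31.2.

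The CTCF consensus, searched on both strands with its centre within 50 bp of the summit and at most 2 mismatches, was found at 12 of the 13 HoxB sites, beside 77.6% of all listed summits. Windows displaced by 2000 bp held it at 3.17%. None of the HoxB matches was exact, 3 had 1 mismatch and 9 had 2. Over the whole list 12.2% were exact, 32.9% had 1 mismatch and 32.5% had 2. In the list, strength followed the match, with median strengths of 444.1 for exact matches, 311.4 with 1 mismatch, 200.5 with 2 and 146.0 without a match.

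Within HoxB the strongest sites were not the closest matches. All of the strong sites but site 1 had 2 mismatches, and they were stronger than 74.6% (site 6) to 96.3% (site 7) of the 13689 listed summits with 2 mismatches. As these sites were set apart by their strength, a place in the upper part of that class follows from the division. Sites 3 and 12, with 1 mismatch, had strengths of only 82 and 63.3. Site 8, the remaining weak site with a match, was stronger than 14.7% of summits with 2 mismatches. The matches also lay at different distances from the summit. Their centres were 1.5 to 6.5 bp from it at the strong sites, and 13.5, 18.5 and 20.5 bp from it at the weak sites 12, 8 and 3. The median distance was 6.5 bp over the list. Sites 3, 8 and 12 were also the only HoxB peaks 340 bp wide with the summit in the middle, a shape shared by 25.9% of listed peaks, of which 99.9% were under the list median in strength. In listed peaks of that shape the motif lay a median of 8.5 bp from the summit.

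**Figure D4:**
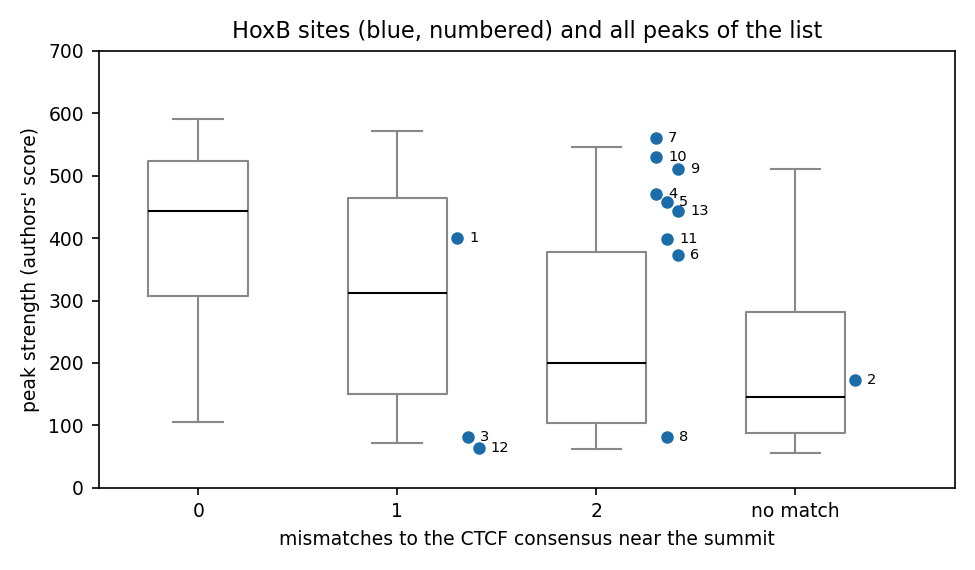
Peak strength (the authors' score) of the HoxB sites (numbered points) by mismatches to the CTCF consensus, beside all peaks of the conservative list (boxes: quartiles and median; whiskers: percentiles 5 and 95). Sites 7, 10, 9, 4, 5, 13, 11 and 6 lie above the list median of 200.5 for 2 mismatches, and sites 3 and 12 below that of 311.4 for 1 mismatch.

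The departures from the consensus fell most often on position 3, counted from 1 at the motif's 5′ end. The change A3G was present at sites 4, 7, 9, 10, 12 and 13, which is 6 of the 12 matches or 50%, and G stood at that position in 5.38% of the 32727 listed summits with a match. The consensus A was present at 41.7% of the HoxB matches and 84.1% of all matches. All matches include exact ones, which hold A at position 3 and of which HoxB had none. Site 6 had A3T. The other substitutions were scattered: C12G at sites 1 and 8, C12T at site 5, C1A at sites 5 and 9, Y5A at site 3 and Y5G at site 10, G11T at site 4 and G11C at site 11, G10T at sites 11 and 13, K9C at site 6, R8C at site 8 and S14T at site 7. In these tokens Y, K, R and S are consensus letters that allow a choice of bases: C or T, G or T, A or G, and C or G. Position 3 was singled out after the sequences were seen. Site 2 missed the consensus at 3 positions, A3G, Y5A and C12A, in the stretch printed above.

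A weight matrix was learned from the consensus matches at summits of the odd-numbered autosomes other than chromosome 11. It chose the same position and strand at all 12 sites with a match. Because it was built from such matches, this agreement is not an independent check. The matrix threshold of 9.0 was set so that 5% of displaced windows passed. It was passed by 12 of the 13 sites, beside 88.3% of summits on the even-numbered autosomes. Site 2 passed (13.2) and site 11 did not (8.4). The highest scores went to the weak sites 3 (25.8) and 12 (23.1), ahead of site 1 (20.7) and site 4 (17.9).

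The motif pointed in the direction of Hoxb transcription (plus strand) at 4 of the 12 matches, against 49.7% of all matches in the list, and against it at 8. From the Hoxb13 side, site 1 pointed toward the cluster, sites 3 to 6 all pointed back toward Hoxb13, and site 7 pointed toward Hoxb8. Sites 8 and 9 pointed back, sites 10 and 11 forward, and sites 12 and 13 back. The outermost sites 1 and 13 therefore faced each other across the cluster. Looping was not measured.

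Most close matches to the motif in the window carried no site. Of 9 matches with 1 mismatch, 3 held a summit (sites 1, 3 and 12), where 24.4% of such matches in the genome did. Of 82 matches with 2 mismatches 9 held one, where 3.29% in the genome did. The window held no exact match, a class in which 78.6% carried a summit genome-wide. Among the 6 matches with 1 mismatch and no site, 1 lay between Hoxb9 and Hoxb8 on the minus strand, 2191.5 bp from site 7. Another lay 217.8 kb past the start of Hoxb13, beyond Hoxb1, with the same 14 bases as site 3, CCAGAAGAGGGCGC, all masked as a repeat at both places.

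That position also held the strongest ranked peak of the window that missed the threshold. Of the 22 ranked peaks of the window behind the conservative list, 13 passed and 9 did not, where 41.1% of all ranked peaks of that list passed. The 9 had strengths of 11.4 to 56.2 with a median of 17. The peak at 217.8 kb had 56.2, with 46.1 in the first input of that ranked list and 8.6 in the second. It did enter the pool E and combined lists, and the ranked list of pool F held no peak there. The next were at 96157360 (43.5) and 96160612 (36.6), both within Ttll6 and both with a motif. They compare with 63.3 at site 12, the weakest that passed, whose IDR was 0.0273; the 3 that missed each had 0.61. Within the cluster itself, the peaks that missed included 1 in Hoxb3 (27.5) and 1 in Hoxb1 (11.4).

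Set beside the other Hox clusters, in windows built alike, HoxB had more sites but a similar density to HoxA and HoxD. HoxB had 13 sites, HoxA 10, HoxD 10 and HoxC 5, which is 4.75, 4.87, 5.08 and 2.32 per 100 kb. Median strengths were 400.3 for HoxB, 468.2 for HoxA, 375.7 for HoxD and 458.6 for HoxC. The strongest HoxB site (559.8) was below the strongest of HoxA (671.6) and close to those of HoxD (558.6) and HoxC (532.1). A match to the consensus was found at 12 of 13 sites in HoxB, 7 of 10 in HoxA, 6 of 10 in HoxD and 3 of 5 in HoxC. With 1 list and clusters of 5 to 13 sites, no test of these differences was made.

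**Figure D5:**
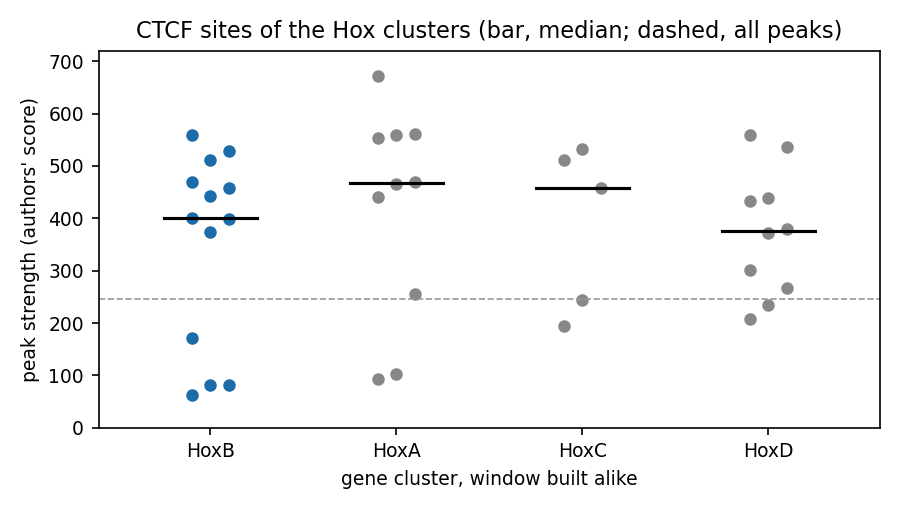
Peak strength (the authors' score) of every site in the HoxB, HoxA, HoxC and HoxD windows, with the cluster median (bar) and the list median of 245.6 (dashed). The lowest sites were 63.3 in HoxB and 93.9 in HoxA, and those of the others were 194.4 in HoxC and 208.5 in HoxD.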

How the data were processed

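The 4 libraries were represented by 4 thresholded and 4 ranked peak lists of the whole series. Per the notes deposited with each sample, technical replicates were merged into 1 alignment per pool, 1 control alignment served both pools, and the assembly was mm10. The software for alignment and peak calling is not given in the sources used here. For thresholded lists the notes name 1 more input without describing it. Peak strength and the scaled IDR value are scores that the authors deposited with each peak, with the scale of the strength not stated. A −log10 IDR value was deposited for each ranked peak. Converted to the scale of the scaled score, it fell within 1 unit of that score for 100% of peaks. In the ranked list behind the conservative list, the strengths of the first and second inputs equalled the ranked pool E and pool F values at all 13 sites.

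Summits were read as the start plus the deposited offset, placed by GENCODE M21 (promoter: within 1000 bp of a gene start), and searched for the motif on the reference sequence with Python 3.11.15, numpy 2.4.6 and pandas 2.3.3. Coordinates count from 1. The motif scan was tested on simulated data. The listed Hoxb genes, the gene holding or flanking each site, the 3 strongest ranked peaks that missed the threshold and the other Hox clusters were named by rule. Members, lists and this rule were chosen with earlier results of these data known. All comparisons are descriptions, since the biological replicates are 1 pool against 1 pool of the same tissue, with technical replicates merged.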

Additional observations from a re-analysis of the deposited data

How the results depend on the processing

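Of 31 alternatives, 25 left a result within 1.5 times its reported value and 6 moved it further. The number of HoxB summits with a motif fell to 3 when at most 1 mismatch was allowed and to 0 for exact matches, and of those 3 matches 1 was on the plus strand. No site had a pool F partner at a reciprocal overlap of 80% (0), beside 8.97% of all conservative peaks. At the strong sites listed pool F peaks were 128 to 239 bp wide and conservative peaks 253 to 330 bp, while at site 2 the pool F peak was 304 bp and the conservative peak 180 bp. Hoxb genes with a near summit numbered 1 within 1000 bp and 10 within 20000 bp, a distance at which 65.9% of protein-coding genes had one. Within 5000 bp they numbered 6 with the combined list, 5 with the pool E list and 4 with the pool F list. Counting any annotated transcript start gave 7 with the conservative list. The summit count was 10 to 16 over the lists and windows tried, and the median strength percentile 70.1 to 77.7. Counting only conservative peaks at or above the list median strength gave 9 summits. No paired analysis was possible because the lists merge the technical replicates, and leaving out each replicate was not possible for the same reason; the pool E list alone gave 12 sites and the pool F list alone 10. Both pools' lists enter the conservative list, so they share reads with it. Depth is unknown, so weak peaks and missed peaks cannot be given a detection limit.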

Other observations

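Base composition varied widely among the sites. Over the summit base and 50 bp on each side, G and C made up 53.5% to 69.3% of bases at the strong HoxB sites (median 60.4%) and 41.6% to 70.3% at the weak ones (median 54.0%). Site 10, before Hoxb5, had the most CpG pairs, 12, and site 6 in Gm53 had 11, while site 3 had 1.

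Of 38 ranked pool E peaks in the window, 12 passed the threshold and 26 did not, and sites 7 and 10 were among the 26. Of 16 ranked pool F peaks, 10 passed and 6 did not, sites 3, 8 and 12 among those that did not. Over all ranked peaks 42% passed in pool E and 42.2% in pool F. Apart from sites 7 and 10, the strongest in pool E that did not pass were within Ttll6 (28.2 and 23.8) and in Hoxb3 (18.9). The peak in Hoxb3 was also ranked in pool F (12.7) and in the combined list (27.5), at an IDR of 0.0996 in pool E, 0.599 in pool F and 0.591 in the combined list.

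A further masked sequence, like that at site 3 but with 1 base changed, lay 221.7 kb past the start of Hoxb13 and had no peak in any ranked list: CCAGAAGAGGGCAC.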
